A study of Mus musculus with 8 samples.

Results

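The integrated stress response and the unfolded protein response were followed through 10 genes in mouse brain: the transcription factor gene Atf4, its target genes Ddit3, Trib3, Chac1, Asns, Sesn2 and Ddit4, the degradation gene Herpud1, and the endoplasmic reticulum (ER) chaperone genes Hspa5 and Hsp90b1. The genes were chosen by name from a table of read counts for 54532 genes. All 10 were found, in 11 rows, because Ddit3 is listed under 2 identifiers, of which ENSMUSG00000116429 had 0 counts in every library and was set aside. All 10 passed the filter on low counts, which kept 16062 genes. RNA sequencing was done on brain tissue of male mice aged 3 months, wild type (WT) or labelled Nsun5-KO, with 4 libraries in each group. Nsun5 encodes a methyltransferase of ribosomal RNA, and the study asks about myelin and sleep in mice without it. The labels state that 5 mice per genotype were taken from the same litter and anaesthetised with pentobarbital. They do not tie a library to 1 mouse or say how the allele was made. The tests therefore set group differences against the spread between these libraries, which may not be the spread between mice.

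Cells use both responses when protein synthesis or protein folding is under strain. In the integrated stress response, kinases phosphorylate the initiation factor eIF2, which lowers general translation while the Atf4 mRNA is translated more, so that much of the control of ATF4 lies beyond its mRNA level. In the unfolded protein response, the ER sensors PERK, IRE1 and ATF6 raise chaperones and degradation factors, and PERK is itself an eIF2 kinase, which joins the pathways. The RNA counts report the transcripts alone. The ribosome profiling that the design text names was not analysed here.

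The start regions of the genes were searched for the elements through which the 2 classes are known to be induced. ATF4 binds the C/EBP-ATF response element (CARE), searched here as TGATGNAA, and ATF6 acts with NF-Y at the ER stress response elements ERSE, searched as CCAAT and CCACG with 9 bases of any kind between them, and ERSE-II, searched as ATTGG and CCACG with 1 base between them. Both strands of the RefSeq windows from 250 bases before to 50 bases after each start (build GRCm38.p6, the assembly called mm10 in the submitters' processing notes) were searched, and all 10 genes had a window. The CARE letters were in 3.97% of 32851 windows of this length, the ERSE letters in 0.119% and the ERSE-II letters in 0.0365%. The 5 windows below are shown because they hold the elements by which the Atf4 targets and the ER chaperones are usually told apart. Each is written 5′ to 3′ along its gene, with the matched letters in capitals.
Asns (chr6:7693160-7693459, minus strand): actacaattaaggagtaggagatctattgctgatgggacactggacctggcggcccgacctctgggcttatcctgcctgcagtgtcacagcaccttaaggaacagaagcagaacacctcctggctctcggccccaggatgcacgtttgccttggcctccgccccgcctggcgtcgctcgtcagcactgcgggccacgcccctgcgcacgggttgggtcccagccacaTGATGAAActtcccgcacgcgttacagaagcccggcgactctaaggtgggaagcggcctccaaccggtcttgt
Chac1 (chr2:119350992-119351291, plus strand): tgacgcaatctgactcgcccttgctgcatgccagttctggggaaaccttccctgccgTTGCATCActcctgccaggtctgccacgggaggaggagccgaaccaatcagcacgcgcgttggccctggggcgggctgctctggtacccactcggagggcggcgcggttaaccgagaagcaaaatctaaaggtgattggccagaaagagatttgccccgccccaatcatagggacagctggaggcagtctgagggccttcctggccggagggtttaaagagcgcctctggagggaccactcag
Herpud1 (chr8:94386179-94386478, plus strand): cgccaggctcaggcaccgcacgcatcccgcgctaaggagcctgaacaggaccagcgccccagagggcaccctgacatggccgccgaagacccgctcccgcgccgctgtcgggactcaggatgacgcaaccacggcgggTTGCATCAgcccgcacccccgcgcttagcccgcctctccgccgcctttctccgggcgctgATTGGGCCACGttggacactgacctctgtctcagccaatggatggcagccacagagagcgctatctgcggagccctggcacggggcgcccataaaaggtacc
Hspa5 (chr2:34771840-34772139, plus strand): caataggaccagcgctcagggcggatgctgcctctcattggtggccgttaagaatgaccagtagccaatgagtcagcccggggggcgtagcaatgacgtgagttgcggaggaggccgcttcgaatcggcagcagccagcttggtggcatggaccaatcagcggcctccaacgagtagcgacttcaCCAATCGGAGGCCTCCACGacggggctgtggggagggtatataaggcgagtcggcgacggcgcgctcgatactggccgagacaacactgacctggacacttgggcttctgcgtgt
Hsp90b1 (chr10:86705395-86705694, minus strand): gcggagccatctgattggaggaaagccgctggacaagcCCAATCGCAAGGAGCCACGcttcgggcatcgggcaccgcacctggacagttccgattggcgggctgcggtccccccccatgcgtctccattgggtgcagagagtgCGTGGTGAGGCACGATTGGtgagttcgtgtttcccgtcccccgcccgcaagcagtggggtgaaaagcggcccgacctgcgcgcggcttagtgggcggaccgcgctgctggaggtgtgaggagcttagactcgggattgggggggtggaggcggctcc
In Asns the capitals mark a CARE match from 23 to 16 bases before the start, and in Chac1 a match on the opposite strand from 193 to 186 bases before it. Trib3 held the CARE letters after its start, at bases 15 to 22, on the opposite strand. The chaperone genes carried ERSE in place of CARE, with 1 match in Hspa5 (65 to 47 bases before the start) and 2 in Hsp90b1 (212 to 194 and, on the opposite strand, 107 to 89 bases before it). Herpud1 held both kinds, CARE on the opposite strand from 112 to 105 and ERSE-II from 52 to 42 bases before its start. No match to the 3 motifs lay in the windows of Atf4, Ddit3, Sesn2 and Ddit4, which says only that these letters are not in those windows. All distances are counted from the RefSeq starts, which for some genes differ from the gene bounds given below. By those bounds the Asns and Hspa5 matches lie inside the gene, and the Trib3 match lies before it.

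**Figure D1:**
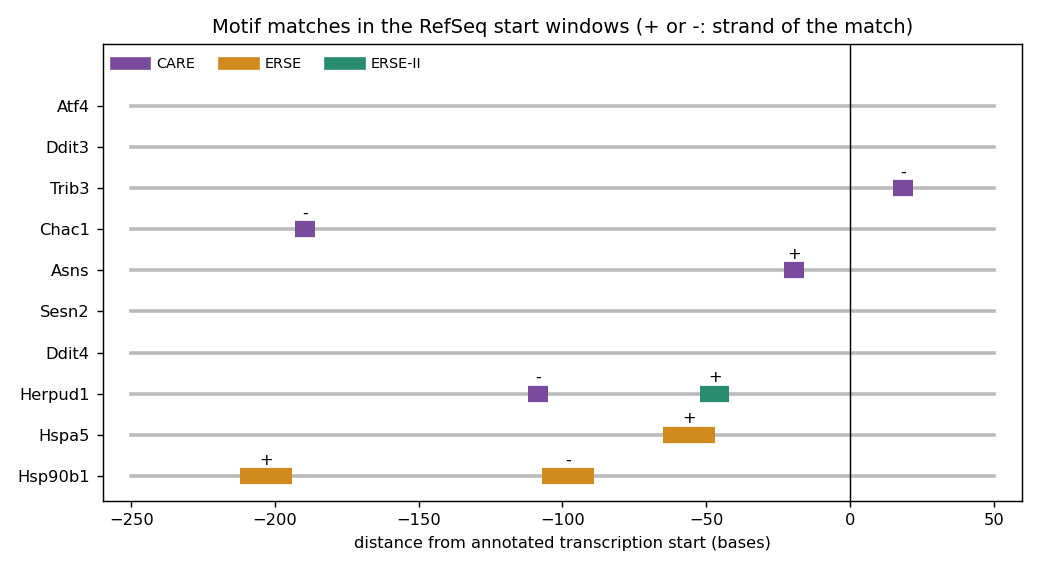
Matches to the CARE, ERSE and ERSE-II letters in the start window of each of the 10 genes, by distance in bases from the RefSeq transcription start; grey lines are the 300-base windows and + or - is the strand of the match relative to the gene. CARE lies in Trib3, Chac1, Asns and Herpud1, ERSE in Hspa5 and Hsp90b1, and ERSE-II in Herpud1.

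The libraries held 15642086 to 17829523 counts, of which mitochondrially encoded genes took 5.52% to 7.68%, and pairs of libraries within a group differed by more than sampling noise (chi-square per degree of freedom 7.22 to 20.4). The first principal component (27.2% of the variance) placed WT replicates 1 and 2 at 28.1 and 31.9, and the remaining 6 libraries at -21.0 to -2.85. Nsun5 had 82 to 109 counts in WT and 83 to 124 in Nsun5-KO (edgeR log2 fold change 0.13, adjusted p = 0.817), so its count did not separate the libraries by label, and Nsun5-KO below means the label a library carries. The tissue was checked with fixed marker lists. For comparison, of all 16062 genes edgeR had 5.30% above WT and 5.05% below it with an unadjusted p under 0.05. The groups were separate, with no overlap between their libraries, in 2.99% (above) and 2.71% (below). DESeq2 called 0.585% of the genes it tested, in either direction. Neuron markers (Snap25 and Syt1 among 5 genes) summed to 4929 to 5413 CPM (counts scaled to library size) in WT and 5894 to 6395 in Nsun5-KO, with 5 of 5 above WT. Of these 5, 3 were higher at an unadjusted p below 0.05, 2 had separate groups, and DESeq2 called 1 higher. The oligodendrocyte markers Mbp, Mobp, Cnp, Mog and Mag were all below WT, 4 of these 5 at an unadjusted p below 0.05 and 3 with separate groups, and DESeq2 called Mobp lower. Mbp, which encodes myelin basic protein, had 2760 to 3236 CPM in WT and 1884 to 2645 CPM in Nsun5-KO, with every Nsun5-KO library below every WT library (edgeR log2 fold change -0.40, adjusted p = 0.313). The astrocyte (2885 to 3374 and 2972 to 3631 CPM, 2 of 5 above WT), microglia (220.2 to 249.9 and 220.5 to 234, 2 of 5), endothelial (150.5 to 175 and 144 to 167, 1 of 4) and blood lists (64.7 to 156 and 67.9 to 221, 2 of 5) overlapped between the groups in their summed level, as did the choroid plexus list (294 to 1118 and 46.6 to 1139, 0 of 5), the ependymal list (13.4 to 25.8 and 6.96 to 14.3, 0 of 4) and the hypothalamic list (5.15 to 118 and 3.17 to 9.86, 0 of 4 tested). Gene by gene, all 4 ependymal markers were lower at an unadjusted p below 0.05, 2 of them with separate groups, and DESeq2 called Ccdc153 lower (edgeR log2 fold change -1.70). Of the 4 hypothalamic markers tested, 2 were lower at an unadjusted p below 0.05, and DESeq2 called both, Hdc (-2.17, groups separate) and Avp (-4.42). Of the 5 blood markers, Hba-a2 was lower with separate groups (edgeR log2 fold change -1.06), and DESeq2 called it (adjusted p = 0.0443). Among the microglia markers, 1 was lower at an unadjusted p below 0.05. Of all these markers, Hcrt, Pmch and Oxt had 0 counts in at least 1 library. In bulk tissue fewer cells of a type and less RNA per cell cannot be told apart, and the part of these shifts in the results below was not tested.

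Per gene length, the chaperones and Atf4 were the most abundant of the 10 transcripts. On the deposited FPKM scale, which divides by gene length, WT libraries held 72.2 ± 5.83 FPKM of Hsp90b1, 63.3 ± 4.46 of Hspa5, 59.9 ± 8.71 of Atf4 and 44.7 ± 2.59 of Asns (SD, n = 4). The Atf4 range in WT (50.1 to 69.7 FPKM) overlapped that of Hspa5 (58.6 to 68.2), and the latter overlapped that of Hsp90b1 (66.1 to 80.0). Ddit4 (25.6 ± 4.88) and Herpud1 (23.4 ± 2.00) followed and overlapped, then Ddit3 (11.6 ± 1.93). Chac1 (4.60 ± 0.335) and Sesn2 (4.11 ± 0.393) overlapped each other, and Trib3 (0.346 ± 0.158) was the lowest. In Nsun5-KO the top of this order was Atf4 at 66.3 ± 4.19, Hspa5 at 66.1 ± 8.16 and Hsp90b1 at 62.5 ± 3.47 FPKM, with overlapping ranges. Trib3, Chac1 and Sesn2 were the scarcest of the 10 in both groups.

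No gene of the 10 passed the test between the groups. The edgeR quasi-likelihood test called 0 of 10 at an adjusted p below 0.05, where it called 0% of the 16062 genes (smallest adjusted p = 0.178). At an unadjusted p below 0.05 it had 2 of the 10 higher, Ddit4 and Herpud1, against 5.30% of all genes, and 1 lower, Hsp90b1, against 5.05% (3 of 10 against 10.4% in either direction), and DESeq2 called 0 of 10 against 0.585%. CPM, scaled by the trimmed mean of M values, did not overlap between the groups in 2 of 10 genes, against 5.70% of all genes. They were Herpud1 (higher, against 2.99%) and Hsp90b1 (lower, against 2.71%). The fitted value lay above WT in 8 of the 10, against 48.6% of all genes, with a median log2 fold change of 0.08 against -0.01.

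**Figure D2:**
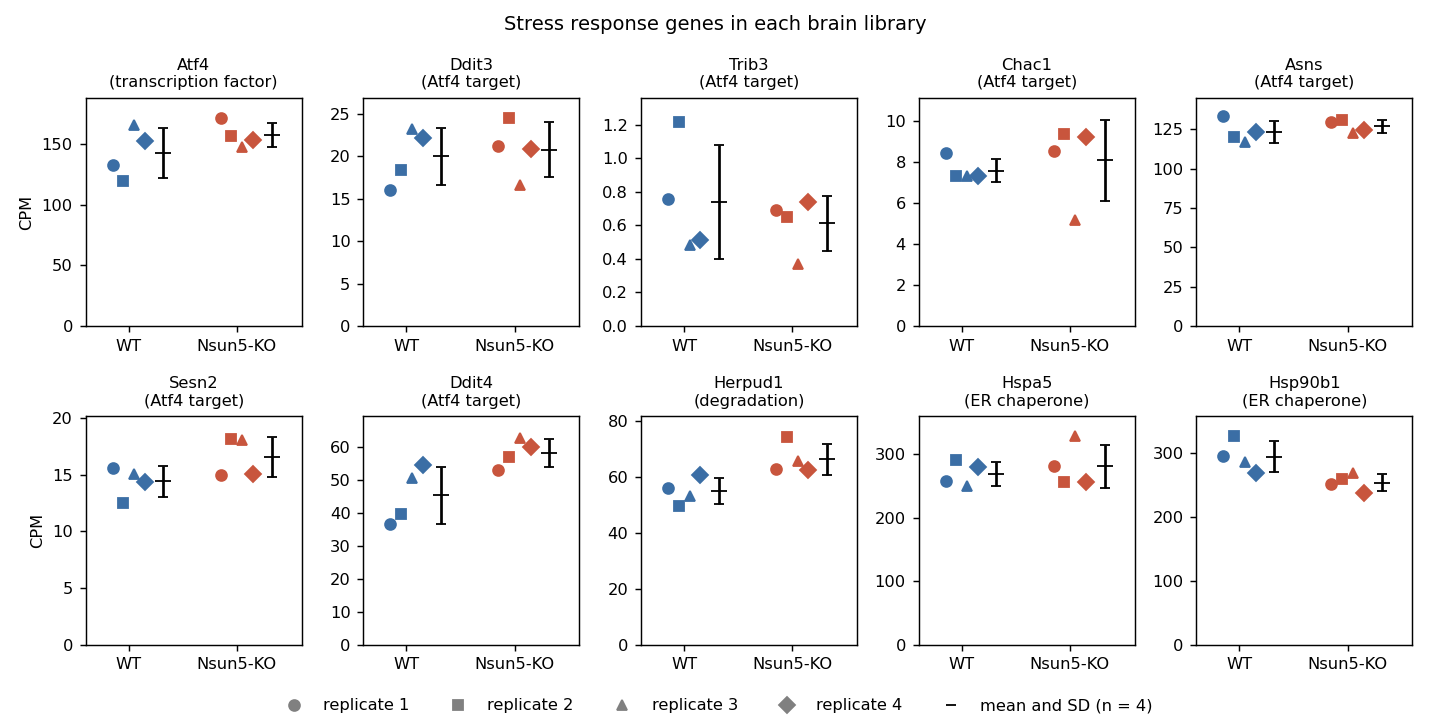
CPM of each of the 10 genes (vertical axes from 0, each panel with its own scale) in the 4 WT (blue) and 4 Nsun5-KO (red) libraries; marker shapes are replicates, and the bar beside each group is its mean and SD (n = 4). The groups are separate for Herpud1 and Hsp90b1 and overlap for the other 8 genes.

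Atf4 (ENSMUSG00000042406, chromosome 15, 80255184 to 80257541, plus strand, mm10), the transcription factor at the centre of the integrated stress response, was close to WT. It had 133, 119, 166 and 152 CPM in WT replicates 1 to 4 and 171, 157, 148 and 153 CPM in Nsun5-KO replicates 1 to 4. WT replicates 1 and 2 were the low libraries, and WT replicates 3 and 4 lay within the Nsun5-KO range. The log2 fold change was 0.14 (SE 0.10, 95% interval -0.07 to 0.36, edgeR adjusted p = 0.659). It was -0.02 without WT replicates 1 and 2 together, 0.06 without WT replicate 2 and 0.22 without WT replicate 3.

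Of the 6 Atf4 targets, Ddit4 stood furthest above WT. Ddit4 (ENSMUSG00000020108, chromosome 10, 59949669 to 59951834), also called REDD1, restrains the growth kinase complex mTORC1 and is induced by glucocorticoids and low oxygen as well as by ATF4. It had 36.5, 39.6, 50.5 and 54.4 CPM in WT replicates 1 to 4 and 52.9, 57.0, 62.8 and 59.9 CPM in Nsun5-KO replicates 1 to 4. The groups overlapped through WT replicate 4, which exceeded Nsun5-KO replicate 1, and WT replicates 1 and 2 were again the low ones. The log2 fold change was 0.36 (SE 0.12, 95% interval 0.10 to 0.63, edgeR adjusted p = 0.385), all 4 Nsun5-KO libraries were above the WT mean, and the exact two-sided permutation p of the CPM was 0.0571. It was 0.15 without WT replicates 1 and 2 (adjusted p = 0.742), and the adjusted p was 0.215 to 0.742 over all alternatives.

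Sesn2 (ENSMUSG00000028893, chromosome 4, 132492032 to 132510501), sestrin 2, which also holds back mTORC1 when amino acids are short, was the next highest. Its CPM were 15.6, 12.5, 15.1 and 14.4 in WT and 15.0, 18.2, 18.1 and 15.1 in Nsun5-KO. Nsun5-KO replicates 2 and 3 were above every WT library, while replicates 1 and 4 lay within the WT range. Its log2 fold change was 0.20 (SE 0.11, 95% interval -0.05 to 0.45, edgeR adjusted p = 0.570). Ddit4 and Sesn2 had no CARE letters in their start windows.

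The targets linked to amino acid supply and to cell death were near WT or sparse. Asns (ENSMUSG00000029752, chromosome 6, 7675169 to 7693254), asparagine synthetase, had 133, 119.9, 117 and 123 CPM in WT and 129, 131, 122 and 124 in Nsun5-KO. The Nsun5-KO values lay within the WT range, and the log2 fold change of 0.04 had a 95% interval of -0.10 to 0.18 (edgeR adjusted p = 0.877), the narrowest of the 10. The Asns window printed above carries its CARE letters close to the start.

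Ddit3 (ENSMUSG00000025408, chromosome 10, 127290774 to 127296288) encodes CHOP, a transcription factor of prolonged ER stress. It had 16.1, 18.4, 23.2 and 22.2 CPM in WT and 21.2, 24.5, 16.6 and 20.9 in Nsun5-KO, with the low libraries WT replicates 1 and 2 and Nsun5-KO replicate 3. Its log2 fold change was 0.06 (95% interval -0.25 to 0.36, edgeR adjusted p = 0.921), and it turned to -0.13 without WT replicates 1 and 2, -0.04 without WT replicate 1 and -0.03 without Nsun5-KO replicate 2. The last 68 bases of Ddit3 overlap Mars on the other strand (648 to 873 counts), and the library kit named in the labels does not mark strand, so reads there cannot be assigned.

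Chac1 (ENSMUSG00000027313, chromosome 2, 119351229 to 119354381), which breaks down glutathione, had 8.42, 7.30, 7.31 and 7.31 CPM in WT and 8.54, 9.37, 5.15 and 9.23 in Nsun5-KO. Nsun5-KO replicate 3 was below every WT library and the other 3 were above. Its log2 fold change was 0.09 (95% interval -0.30 to 0.49, edgeR adjusted p = 0.901), and it was 0.26 without Nsun5-KO replicate 3, 0.007 without Nsun5-KO replicate 2 and 0.02 without Nsun5-KO replicate 4. Trib3 (ENSMUSG00000032715, chromosome 2, 152337422 to 152344032), a pseudokinase that dampens ATF4 and AKT signalling, had 13, 19, 8 and 9 counts in WT and 11, 11, 6 and 13 in Nsun5-KO. Its log2 fold change of -0.26 had a 95% interval of -1.15 to 0.63 (edgeR adjusted p = 0.867), and it was 0.30 without WT replicates 1 and 2 and 0.07 without WT replicate 2.

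Herpud1 and Hsp90b1, both of the ER, lay on opposite sides of WT. Herpud1 (ENSMUSG00000031770, chromosome 8, 94386438 to 94395377) encodes an ER membrane protein that helps send misfolded proteins to the proteasome. It had 56.1, 49.7, 53.3 and 60.6 CPM in WT and 63.0, 74.5, 65.7 and 62.7 in Nsun5-KO. Every Nsun5-KO library was above every WT library, and Nsun5-KO replicate 2 was the highest. The log2 fold change was 0.27 (SE 0.08, 95% interval 0.09 to 0.46, edgeR adjusted p = 0.340), and the exact two-sided permutation p was 0.0286, the smallest that 4 against 4 can give. With 1 library left out at a time it was 0.21 to 0.32, and the adjusted p was 0.182 to 0.690 over all alternatives. Herpud1 was the 1 gene of the 10 whose start window holds both CARE and ERSE-II.

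Hsp90b1 (ENSMUSG00000020048, chromosome 10, 86690209 to 86705509, minus strand) encodes GRP94, the HSP90 of the ER. It had 295, 326, 285 and 268.1 CPM in WT and 250.1, 258, 267.7 and 236 in Nsun5-KO. Every Nsun5-KO library was below every WT library, though WT replicate 4 and Nsun5-KO replicate 3 nearly met. On the deposited FPKM scale those libraries changed places (66.1 and 66.2 FPKM), so that the groups overlapped. The log2 fold change was -0.21 (SE 0.07, 95% interval -0.38 to -0.05, edgeR adjusted p = 0.405), with an exact two-sided permutation p of 0.0286. It was -0.13 without WT replicates 1 and 2, and its adjusted p was 0.262 to 0.730 over all alternatives. The gene 1810014B01Rik overlaps Hsp90b1 on the other strand over 4598 bases and had 43 to 83 counts in a library, against 3984 to 5084 for Hsp90b1.

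Hspa5 (ENSMUSG00000026864, chromosome 2, 34771970 to 34777547, plus strand), which encodes BiP, the main HSP70 of the ER and the gene most used to read the unfolded protein response, did not follow Hsp90b1. It had 258, 291, 249.9 and 280.0 CPM in WT and 281, 257, 329 and 257 in Nsun5-KO. Nsun5-KO replicate 3 was the highest of the 8 libraries and the other 7 were intermixed. The log2 fold change was 0.06 (SE 0.09, 95% interval -0.14 to 0.25, edgeR adjusted p = 0.864) and -0.02 without Nsun5-KO replicate 3. The ratio of Hsp90b1 to Hspa5 in FPKM was 1.20, 1.17, 1.20 and 1.004 in WT replicates 1 to 4 and 0.933, 1.06, 0.853 and 0.964 in Nsun5-KO replicates 1 to 4. Nsun5-KO replicate 2 exceeded WT replicate 4 in this ratio, and the other 3 Nsun5-KO libraries lay below all WT libraries. Both chaperone windows printed above hold ERSE letters.

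**Figure D3:**
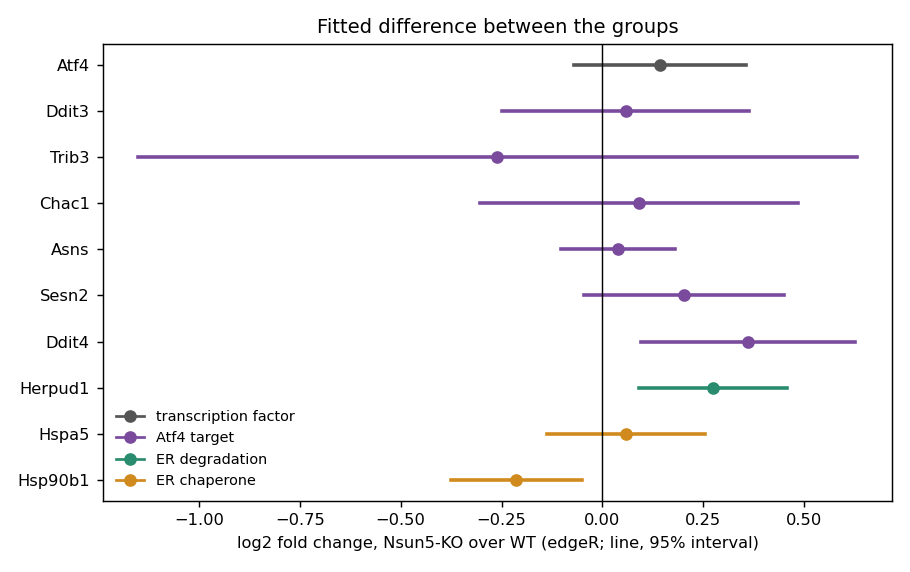
Log2 fold change of Nsun5-KO over WT for each of the 10 genes from edgeR (points) with its 95% interval (lines), coloured by role. The intervals of Ddit4, Herpud1 and Hsp90b1 exclude 0 before adjustment for the number of genes, and the interval of Trib3, the sparsest gene, is the widest.

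Set side by side, the Atf4 targets lay slightly above WT and the chaperones were split. Of the 6 targets, 5 were above WT and 1 below, with a median log2 fold change of 0.07. Of the 2 chaperones, 1 was above and 1 below, with a median of -0.08. Over all genes tested the median was -0.01, with quartiles of -0.13 and 0.10, and both class medians lay between those quartiles. The difference of the medians, 0.15, was 0.08 without Nsun5-KO replicate 2, 0.09 without Nsun5-KO replicate 4 and 0.29 without Nsun5-KO replicate 3. By library, the mean log2 CPM of the targets minus that of the chaperones, each relative to its WT mean, was 0.01, -0.11, 0.06 and 0.04 in WT replicates 1 to 4 and 0.19, 0.34, -0.20 and 0.35 in Nsun5-KO replicates 1 to 4. Nsun5-KO replicates 1, 2 and 4 lay above every WT library and Nsun5-KO replicate 3 lay below every one. The target score weighs its 6 genes equally, the sparse Trib3 included. Trib3 had 6 counts in Nsun5-KO replicate 3, 8 to 19 in WT and 11 to 13 in the other Nsun5-KO libraries. The order of single libraries thus depends in part on a few reads, and no score without Trib3 was computed. No test was made on these scores, because their genes were chosen with results of these data known.

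**Figure D4:**
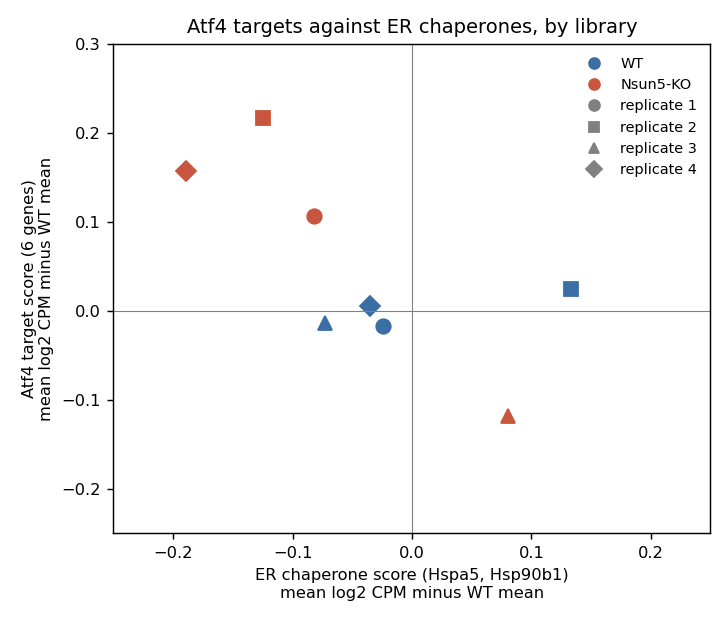
Score of the 6 Atf4 targets (vertical) against that of the chaperones Hspa5 and Hsp90b1 (horizontal), each the mean log2 CPM minus the WT mean, for the 8 libraries. Nsun5-KO replicates 1, 2 and 4 lie at the upper left (target minus chaperone 0.19, 0.34 and 0.35), and Nsun5-KO replicate 3 at the lower right (-0.20). The sparse Trib3 (6 to 19 counts) weighs as much in the target score as each other gene.

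Nsun5-KO replicate 3 differed from the other Nsun5-KO libraries in a few genes of both classes and in the cytosolic heat shock genes. It had the lowest Chac1 and Trib3 and the highest Hspa5 of the 8 libraries, while its Ddit3 and Asns lay within the WT range. The other Atf4 targets were high there, with the highest Ddit4 of the 8 libraries (62.8 CPM) and Sesn2 (18.1 CPM) above every WT library. Its cytosolic heat shock score was 0.56, against -0.06 to 0.12 in the other 7 libraries. Hspa1a, the inducible cytosolic HSP70, had 24.0 CPM there and 3.71 to 8.73 CPM elsewhere. Hspa1a has a near-identical copy, Hspa1b, so their counts are uncertain, and Hspa1b had 40.0 CPM there and 6.97 to 13.1 CPM elsewhere. The part of this library's heat shock level in its Hspa5 level was not tested.

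The other genes of the pathways, in lists put together by function, were near WT as well, and edgeR called 0 genes of any of them in either direction. Among 14 genes of eIF2 control, 9 were above WT and 5 below (median 0.03). They included Eif2ak3, which encodes PERK (0.18, SE 0.09), and Eif2ak1, the haem-regulated kinase HRI (0.12, SE 0.06). Among 23 tested of 25 other Atf4 targets, 10 were above and 13 below (median -0.08). Gdf15 and Fgf21 had 0 to 10 counts and were not tested. Nupr1, a small stress-induced nuclear protein, was at 0.41 (SE 0.18) with separate groups, and Slc7a5, an amino acid transporter, at 0.15. The median of this list was -0.002 without WT replicate 1. Of 20 cytosolic aminoacyl-tRNA synthetases, many of them ATF4 targets, 7 were above and 13 below (median -0.04), with Hars at 0.14 and Rars at -0.15.

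On the ER side, the 7 genes of the stress sensors and their processing had a median of 0.08, with 4 above and 3 below WT, and Atf6 was at 0.14. Of 22 other ER chaperones and folding enzymes, 9 were above and 13 below (median -0.05). Sil1, the nucleotide exchange factor of BiP, had 21.5, 23.4, 19.9 and 20.4 CPM in WT and 18.1, 18.0, 13.9 and 18.9 in Nsun5-KO. Its groups were separate, with Nsun5-KO replicate 3 the lowest (log2 fold change -0.31, SE 0.11, edgeR adjusted p = 0.412), and Cnpy2 was at -0.18. Of 18 genes of ER-associated degradation, 8 were above and 10 below (median -0.01). Herpud2, the paralog of Herpud1, had 54.8, 54.4, 51.9 and 52.3 CPM in WT and 60.5, 57.4, 63.4 and 58.7 in Nsun5-KO. Its groups were separate in the same direction as those of Herpud1 (log2 fold change 0.17, SE 0.07, edgeR adjusted p = 0.412), while Derl3, a sparse gene, was at -0.88 (SE 0.41).

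The list genes that had a start window were also grouped by motif. Windows were found for 21 of 25 other Atf4 targets and 13 of 20 synthetases. They were found for 19 of 22 other ER chaperones and folding enzymes and 14 of 18 genes of ER-associated degradation. Genes without a window were not searched, so the groups are not complete. The ERSE letters were in the windows of 10 genes over these lists and the 10 genes above, of which 3 were above WT and 7 below (median -0.07, from -0.88 in Derl3 to 0.09 in Ero1lb). The CARE letters were in the windows of 18 genes, of which 17 were tested, with 9 above and 8 below (median 0.01, from -0.36 in Atf3 to 0.41 in Nupr1). ERSE-II was in Herpud1 and in Dnajb11 (0.07). No gene of these groups passed the test.

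Stress genes outside the ER gave a background for Ddit4 and Hspa5. Of 14 cytosolic heat shock genes, 12 were above and 2 below WT (median 0.09, and 0.02 without Nsun5-KO replicate 3). Hspa1a was at 1.09 (SE 0.51), with the high value in that library given above, and its co-chaperone Dnajb1 was at 0.26. Of 8 mitochondrial chaperone and protease genes, 6 were above and 2 below (median 0.01), with Hspe1 at -0.20 and Clpp at -0.07. Of 13 immediate early genes, 7 were above and 6 below (median 0.09), with Npas4 at -0.60 and Arc at 0.53. The median of the immediate early genes was -0.29 without WT replicates 1 and 2, -0.06 without either of them alone, -0.04 without Nsun5-KO replicate 3 and 0.01 without Nsun5-KO replicate 2. Of 14 genes induced by glucocorticoids, 10 were above and 4 below (median 0.24, 0.10 without WT replicates 1 and 2, and 0.16 without Nsun5-KO replicate 3). The groups were separate and higher in 4 of these 14, against 2.99% of all genes. At an unadjusted p below 0.05, 4 were higher (5.30% of all genes) and 1 was lower (5.05%), and the lowest fitted value of the list was -0.76.

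The kinase gene Sgk1, a glucocorticoid target, had 58.1, 69.5, 84.6 and 92.7 CPM in WT and 108, 106, 134 and 136 in Nsun5-KO. Every Nsun5-KO library was above every WT library (log2 fold change 0.67, SE 0.15, edgeR adjusted p = 0.307; DESeq2 adjusted p = 0.00433). Tsc22d3, which encodes the glucocorticoid-induced leucine zipper protein, was at 0.41 (SE 0.11), also with separate groups. WT replicates 1 and 2 were the lowest libraries in Ddit4, Sgk1 and Tsc22d3 alike. The same libraries were also the lowest in Atf4 and in the immediate early score (-0.49 and -0.40). They stood apart from all other libraries on the first principal component, so their low place is not particular to these genes. The part of the glucocorticoid list in the level of Ddit4 was not tested.

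**Figure D5:**
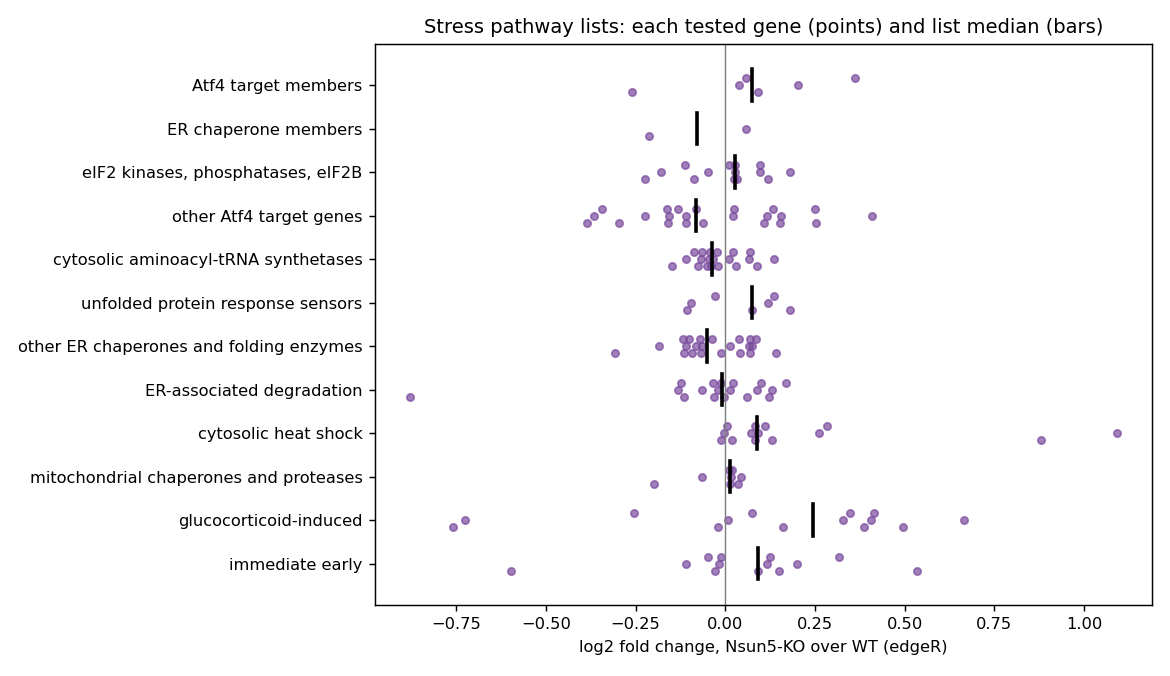
Log2 fold change of Nsun5-KO over WT (edgeR) for every tested gene of the 12 stress pathway lists (points) with each list's median (black bars). Medians lie between -0.08 and 0.09 except for the genes induced by glucocorticoids (0.24).

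Across the 8 libraries, the genes whose log2 CPM followed Atf4 most closely among 10155 other genes with a mean of at least 10 CPM were Cox6a1 (Pearson r = 0.98), Car7 (0.98) and Slc25a3 (0.97). For Hspa5 they were Ice1 (0.95), Numbl (0.94) and Nol4 (0.94). These values describe 8 points that share genotype groups and library scaling, and each gene was picked as the highest of all. Among the 10 genes themselves, Hspa5 and Hsp90b1 had r = 0.14, Herpud1 had r = 0.82 with Sesn2 and 0.72 with Ddit4, and Hsp90b1 had r = -0.80 with Ddit4 and -0.76 with Herpud1, over the same 8 libraries. The difference between the groups enters each of these values.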

How the data were processed

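Brain RNA from 4 WT and 4 Nsun5-KO samples was analysed. The submitters' processing notes name HISAT2 2.0.5 and mm10, and no source used here names the read counter. The counts deposited by the authors are whole reads per gene, not normalised. The FPKM values deposited by the authors are the same counts over gene length and over 1 constant per library (0.981 to 1.02 times its total). The deposited group means of FPKM were checked and not used.

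Groups were compared on the counts by edgeR 4.0.16, run in R 4.3.3 (filterByExpr, TMM scaling, robust quasi-likelihood F test, no covariate, 8 libraries), with Benjamini-Hochberg adjustment over 16062 genes and a threshold of 0.05. SE is the log2 fold change divided by the root of F. CPM use TMM-scaled totals; scores use log2 CPM with a prior count of 2. Exact tests permuted 70 labelings of the CPM. Alternatives used DESeq2 1.42.0, limma 3.58.1 (voom, and log2 FPKM plus 1 or 0.1), other scalings and filters, a replicate block and left-out libraries. Motifs were searched in RefSeq windows by symbol.

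Named genes are the 10 members, Nsun5, the 2 genes of smallest p in each list, called list genes and the 3 genes most correlated with Atf4 and Hspa5. Others (Hspa1b, Ero1lb, Dnajb11, Atf3, Gdf15, Fgf21, Mars, 1810014B01Rik) were named after their values were seen. The summed level of the oligodendrocyte markers is not reported here, and 5 of them are given by name. Markers and the values beside them were named after they were seen. Members and lists were chosen with earlier results of these data known. On simulated counts for this comparison (15851 genes tested), 10% of genes changed 1.25-fold were recovered, 50% at 1.5-fold, 84% at 2-fold and 100% at 4-fold, and 4.69% of calls were unchanged genes. The simulation drew each gene independently, without the differences that genes share between real libraries, and changed no gene as sparse as Trib3.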

Additional observations from a re-analysis of the deposited data

Results flagged for a closer look

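A sample far from the other 3 of its group was looked for in 44 groups of 4 values (the CPM of each of the 10 genes and the scores of the 12 stress lists, in each genotype), of which chance flags about 1 in 20. There were 3 such samples. Chac1 in WT replicate 1 was at 8.42 CPM, where the other WT libraries were at 7.30 to 7.31. The cytosolic heat shock score of Nsun5-KO replicate 3 was 0.56 (log2 CPM relative to the WT mean), where the other Nsun5-KO libraries were at 0.03 to 0.11. The glucocorticoid score of the same library was 0.32, where the other Nsun5-KO libraries were at 0.08 to 0.10. WT replicates 3 and 4 were at 0.20 and 0.14 in this score, above those other Nsun5-KO libraries. The Chac1 gap rests on 3 WT libraries that agree closely, and WT replicate 1 lies within the Nsun5-KO range of 5.15 to 9.37 CPM.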

How the results depend on the processing

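The number of genes called was 0 in the reported test, 94 with DESeq2 (52 higher, 42 lower), 68 without the low-count filter (37 higher, 31 lower) and 0 to 2 with 1 library left out, the 2 without Nsun5-KO replicate 4. The cause was not tested. None of the 10 genes was called in any of 179 alternative values (smallest adjusted p = 0.182), and 172 of these kept the direction. Those that turned were Atf4 (-0.018), Ddit3 (-0.13) and Trib3 (0.30) without WT replicates 1 and 2 together, and, with 1 library left out, Ddit3 (-0.036 without WT replicate 1, -0.034 without Nsun5-KO replicate 2; up to 0.152), Trib3 (0.068 without WT replicate 2; down to -0.414) and Hspa5 (-0.025 without Nsun5-KO replicate 3; up to 0.098). Leaving out 1 library gave medians of 0.01 to 0.16 for the Atf4 targets and -0.13 to -0.04 for the chaperones, and 0.08 to 0.29 for their difference. The synthetase median was 0.00031 and that of the ER stress sensors 0.031 without WT replicates 1 and 2, and the synthetase median was -0.041 to -0.0054 with 1 library left out. Trib3 was not tested when at least 1 CPM in 4 libraries was required. Libraries of the same replicate number did not deviate together (r = -0.26 to 0.09, and 0 of 4 matched their own number best). With 4 libraries in each group, this check cannot exclude that they share more than a number. With the replicate block 0 genes were called, and the log2 fold changes were 0.38 for Ddit4, 0.27 for Herpud1, -0.21 for Hsp90b1 and 0.05 for Hspa5. With 1 library left out, the medians were 0.001 to 0.031 for eIF2 control, -0.14 to -0.002 for the other Atf4 targets, -0.020 to 0.004 for ER-associated degradation, 0.017 to 0.13 for cytosolic heat shock and 0.002 to 0.018 for the mitochondrial genes. The counts of Trib3 (6 to 19) leave it the widest interval of the 10.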
